A study of Mus musculus with 12 samples.

Results

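The enzymes that carry glucose carbon through glycolysis and the citric acid cycle were followed in the hypothalamic arcuate nucleus (ARC) of mice carrying an activating mutation of AMPK. The set comprised 41 genes, found by symbol in a table of 38283 genes, and each symbol matched 1 row. Of the 41 genes, 20 encode enzymes or regulators of the cytosolic steps and 21 encode enzymes or regulators of the mitochondrial steps. The ARC was laser-captured from brain sections of freely fed male C57BL/6 mice aged 8 weeks, and 1 library was made per mouse. There were 5 wild-type mice (WT) and 7 mice homozygous for R299Q γ2 AMPK (Homo), a substitution knocked into *Prkag2*, the gene of the γ2 regulatory subunit. The allele is present in the germline and therefore in every tissue, so the ARC of Homo mice was studied in animals whose other organs also carried it. Heterozygous mice were not analysed here. Levels are given in FPKM, fragments mapped to a gene scaled by the length of its transcript and by the size of the library.

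Glycolysis splits glucose into pyruvate in the cytosol, yielding a little ATP and NADH. Pyruvate is then either reduced to lactate by lactate dehydrogenase or taken into mitochondria, where the pyruvate dehydrogenase complex and the citric acid cycle oxidize it and feed the respiratory chain. Several steps have alternative isoforms whose abundance is characteristic of cell type, such as aldolase C in astrocytes and some neurons and enolase 2 in neurons, and AMPK is known to promote glycolysis in several tissues through phosphofructokinase 2.

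The stretch upstream of the start site is shown for 4 members, because they represent an isoform pair that kept its order in all 12 libraries (*Ldha* and *Ldhb*), the phosphoglycerate kinase gene and the kinase gene with the smallest p among mitochondrial members (*Pdk2*). Each is 250 bases long, ends at the base before the most upstream RefSeq start of GRCm38.p6 and is written 5′ to 3′ on the strand of the gene. Capitals mark ACGTG on either strand, the core shared by hypoxia response elements and by one form of E-box, and the motifs overlap where CACGTG is written. The stretches lie at chr7:46845554-46845803 (*Ldha*, plus strand), chr6:142507958-142508207 (*Ldhb*, minus strand), chrX:106186850-106187099 (*Pgk1*, plus strand) and chr11:95041372-95041621 (*Pdk2*, minus strand).
Ldha: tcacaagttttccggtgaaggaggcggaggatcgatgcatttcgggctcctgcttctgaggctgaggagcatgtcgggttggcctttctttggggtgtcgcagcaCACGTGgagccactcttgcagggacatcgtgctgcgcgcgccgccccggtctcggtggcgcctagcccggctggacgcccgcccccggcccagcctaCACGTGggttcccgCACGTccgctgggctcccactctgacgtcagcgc
Ldhb: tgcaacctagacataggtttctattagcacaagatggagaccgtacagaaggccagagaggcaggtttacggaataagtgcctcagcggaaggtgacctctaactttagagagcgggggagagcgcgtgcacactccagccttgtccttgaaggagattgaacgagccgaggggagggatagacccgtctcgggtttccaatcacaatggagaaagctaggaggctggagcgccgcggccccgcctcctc
Pgk1: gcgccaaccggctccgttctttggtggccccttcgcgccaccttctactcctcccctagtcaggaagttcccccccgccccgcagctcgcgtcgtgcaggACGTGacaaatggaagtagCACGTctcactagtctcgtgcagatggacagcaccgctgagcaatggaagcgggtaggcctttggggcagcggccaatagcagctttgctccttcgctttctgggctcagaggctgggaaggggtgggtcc
Pdk2: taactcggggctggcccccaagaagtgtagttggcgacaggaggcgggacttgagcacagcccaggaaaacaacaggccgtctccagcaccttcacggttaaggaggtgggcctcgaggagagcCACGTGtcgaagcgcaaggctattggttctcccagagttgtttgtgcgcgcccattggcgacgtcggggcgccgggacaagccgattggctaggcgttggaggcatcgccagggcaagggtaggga
The core occurred 5 times upstream of *Ldha*, 2 times upstream of *Pgk1*, 2 times upstream of *Pdk2* and 0 times upstream of *Ldhb*. Each strand was counted, so a CACGTG counts 2 times. Both matches of *Pdk2* lie in 1 CACGTG, whereas those of *Pgk1* lie apart. RefSeq windows reaching 250 bases upstream and 50 bases into the gene were available for 40 of the members. At least 1 window with ACGTG was found for 13 of 20 cytosolic genes (65.0%), for 6 of 20 mitochondrial genes (30.0%) and for 21.8% of all 27025 genes with a window. The NRF1 core GCGCATGC was found for 1 cytosolic and 1 mitochondrial gene, against 3.05% of all genes, and AAGGTCA, the half-site of oestrogen-related receptors, for 2 and 1, against 5.38%. These are matches of letters in windows that were not matched for base composition, and genes with several start sites had more windows to match.

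All 41 members had an FPKM above 0 in every library and passed the filter of a mean FPKM of at least 1, which 14017 genes passed. Marker genes of ARC neurons were present, with a summed FPKM of 1284 to 4513 in WT and 3405 to 5158 in Homo over 8 genes. The libraries fell into 2 sets by the number of genes above 0. WT 1, WT 2 and Homo 1 to 5 listed 15742 to 16467 genes, and 1 fragment on 1 kb was worth an estimated 0.155 to 0.324 FPKM there. WT 3, WT 4, WT 5, Homo 6 and Homo 7 listed 18141 to 18635 genes, at 0.0851 to 0.123 FPKM per such fragment. No label names these sets as a batch, but the titles of Homo 6 and Homo 7 are worded differently from those of Homo 1 to 5, which is the split of the Homo libraries between the sets, while the WT titles are worded alike. The sets are unevenly spread over the genotypes, so genotype differences are also given within each set. WT 3 stood apart, with the lowest summed ARC markers, the highest total FPKM (2.12e+07) and the largest share of that total in the 10 most abundant genes (98.0%). That share was high in the other libraries too, from 95.8% in Homo 7 to 97.0% in Homo 3. WT 3 also had the highest summed pituitary markers, 115 FPKM over 7 genes against a WT median of 4.31 and a Homo range of 0.991 to 57.4, and the highest summed endothelial markers among WT mice, 107 FPKM against a WT median of 34.2 and a Homo range of 22.0 to 121.

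Over the whole table, a genotype difference passed an adjusted p of 0.05 in 1 gene, which is 0.00713% of those tested (limma on log2(FPKM + 1), Benjamini-Hochberg adjustment). It was not a member. An unadjusted limma p under 0.05 was reached by 778 genes, 5.55% of those tested, and 31 genes (0.221%) had no overlap between the genotypes. Among the 41 members, 0 had an adjusted limma p under 0.05, 1 had an unadjusted p under 0.05 and 0 had genotypes that did not overlap. The member was *Mdh1*, cytosolic malate dehydrogenase. The smallest adjusted limma p among the members was 0.887. The estimate was higher in Homo for 26 members and lower for 15, and 38 of the 41 lay within 0.5 of 0 on the log2 scale. A p that misses the threshold leaves room for sizeable differences: 95% intervals (normal, from the standard error) reached from -1.06 to 0.021 for *Eno1*. They reached from -0.37 to 0.21 for *Mdh2*, which had the smallest standard error. Intervals of other members were wider, from -0.33 to 1.82 for *Hk2* and from -0.91 to 1.57 for *Pdk4*, which had the largest. With 12 libraries, such normal intervals come out somewhat too narrow. In bulk tissue, fewer cells of a type and less RNA per cell cannot be told apart.

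**Figure D1:**
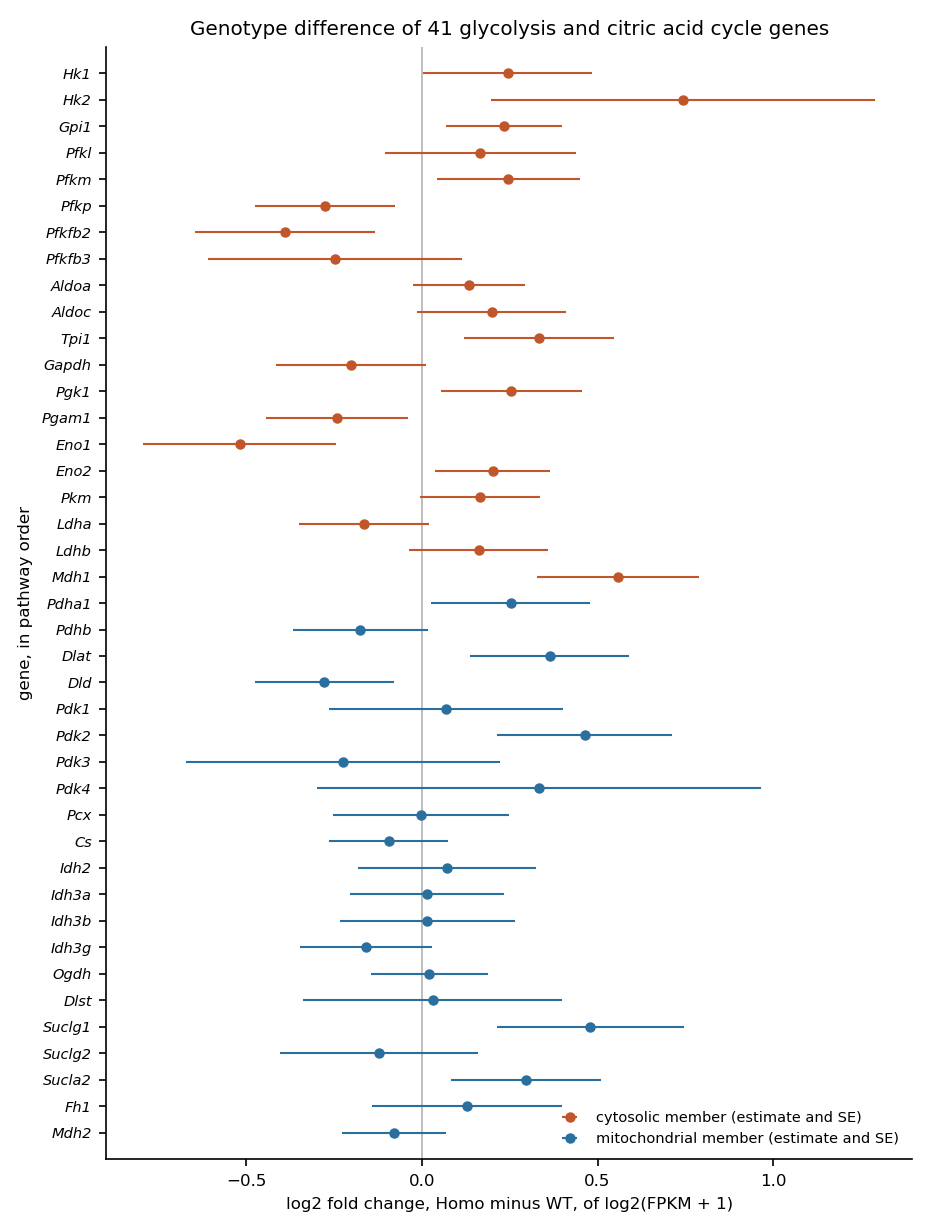
Log2 fold change (Homo minus WT, on log2(FPKM + 1), x axis) of the 41 members in pathway order (y axis), with points for the limma estimate and bars for 1 standard error, cytosolic members in orange and mitochondrial members in blue. Estimates lie on both sides of 0 in both compartments, from -0.52 for *Eno1* to 0.74 for *Hk2*, and *Mdh1* at 0.56 is the member with an unadjusted p under 0.05.

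The entry of glucose into glycolysis rested on *Hk1* rather than *Hk2* transcript. Hexokinase 1, the main hexokinase of brain, phosphorylates glucose on its entry, and hexokinase 2 is the insulin-responsive form of muscle and fat. *Hk1* was measured at 25.7, 35.7, 15.5, 20.7 and 21.7 FPKM in WT mice 1 to 5 and at 19.7 to 46.3 FPKM in Homo mice, with a median of 26.0. *Hk2* was measured at 0.228, 3.73, 0.436, 6.64 and 2.75 FPKM in WT mice and at 0.658 to 8.05 FPKM in Homo mice, with a median of 6.65. The genotypes overlapped for both, and *Hk1* held 75.7% to 99.1% of the pair in all 12 libraries. The lowest *Hk2* value, in WT 1, stood for an estimated 5.19 fragments. *Hk2* had the largest estimate of the set, 0.74 on the log2 scale, but its standard error was 0.55 (limma p = 0.196, exact permutation p = 0.246). *Hk1* differed by 0.24 (standard error 0.24, exact permutation p = 0.340). Between the library sets *Hk1* differed by 0.51, the set with more genes being the lower one (limma with genotype in the model, adjusted p = 0.551). *Gpi1*, the isomerase that makes fructose 6-phosphate, was measured at 100.2 ± 17.0 FPKM in WT mice (SD, n = 5) and 118 ± 18.0 FPKM in Homo mice (SD, n = 7).

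Phosphofructokinase commits sugar to glycolysis, and its 3 subunit genes were all expressed. *Pfkm*, the muscle-type subunit, was measured at 35.0, 37.6, 17.5, 28.6 and 32.9 FPKM in WT mice and at 26.8 to 41.9 FPKM in Homo mice, with a median of 33.4. *Pfkp*, the platelet-type subunit, was measured at 33.2, 28.6, 30.1, 28.2 and 27.9 FPKM in WT mice and at 14.3 to 34.4 FPKM in Homo mice, with a median of 26.0. *Pfkl*, the liver-type subunit, was measured at 8.46, 11.6, 9.60, 8.48 and 18.3 FPKM in WT mice and at 7.71 to 22.1 FPKM in Homo mice, with a median of 11.4. *Pfkm* was the most abundant subunit in 10 of 12 libraries and *Pfkp* in the other 2, and *Pfkl* was never the most abundant. The share of *Pfkm* was 42.0% ± 6.8 in WT mice (SD, n = 5) and 48.4% ± 3.3 in Homo mice (SD, n = 7). That of *Pfkp* was 42.2% ± 6.9 and 34.1% ± 7.4. None of the 3 separated the genotypes, with exact permutation p = 0.231 for *Pfkm*, 0.157 for *Pfkp* and 0.559 for *Pfkl*. The bifunctional enzymes *Pfkfb2* and *Pfkfb3*, which set the level of the allosteric activator of phosphofructokinase and are phosphorylated by AMPK, were low in both genotypes. *Pfkfb2* was measured at 3.04 ± 0.886 FPKM in WT mice and 2.13 ± 0.882 FPKM in Homo mice, with an estimate of -0.39 on the log2 scale (standard error 0.26, exact permutation p = 0.109). *Pfkfb3* was measured at 6.65 ± 3.60 FPKM in WT mice and 5.41 ± 3.15 FPKM in Homo mice, and its estimates had opposite signs in the library sets, 0.49 with fewer and -0.77 with more genes above 0.

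The aldolase step held some of the most abundant transcripts of the set. Aldolase A is the widespread form and aldolase C the brain form, a common astrocyte marker. *Aldoa* was measured at 462, 457, 274, 424 and 366 FPKM in WT mice and at 383 to 545 FPKM in Homo mice, with a median of 409.5. *Aldoc* was measured at 524, 469, 207, 408 and 268 FPKM in WT mice and at 353 to 466 FPKM in Homo mice, with a median of 416. The pair was evenly matched, *Aldoa* holding 45.1% to 57.7% of its sum, and the genotypes overlapped for both. *Aldoc* spread more widely among WT mice (SD 134 FPKM, n = 5) than among Homo mice (SD 35.2 FPKM, n = 7). The astrocyte markers had a median log2 fold change of 0.18 over 8 genes, and 0 of them had an unadjusted limma p under 0.05. The genotype difference of *Aldoc* was -0.28 among libraries with few genes above 0 and 0.51 among the rest (limma interaction term, adjusted p = 0.876), and *Ldhb* was alike, at -0.26 and 0.53 (adjusted p = 0.876). An unadjusted interaction p under 0.05 was reached by 2 members and by 726 of all genes tested. *Tpi1*, which interconverts the triose phosphates, was measured at 109 ± 36.6 FPKM in WT mice and 133 ± 23.1 FPKM in Homo mice (exact permutation p = 0.159).

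*Gapdh*, the dehydrogenase that yields the NADH of glycolysis, was the most abundant cytosolic member (ENSMUSG00000057666, chromosome 6 from 125161715 to 125166467 of GRCm38). It was measured at 514, 408, 445, 539 and 646 FPKM in WT mice and at 313, 335, 327, 464, 498, 663 and 588 FPKM among Homo 1 to 7. The 3 lowest libraries were Homo 1 to 3, and the highest was Homo 6. The log2 fold change was -0.20 (standard error 0.21, limma p = 0.359, exact permutation p = 0.369). Between the library sets *Gapdh* differed by 0.49 with genotype in the model, the set with more genes above 0 being the higher one (limma, adjusted p = 0.477). The estimate within the sets was -0.27 with fewer and 0.22 with more genes above 0. The next enzymes of the pathway stood far lower in the same libraries. *Pgk1*, the kinase that makes ATP, spanned 9.71 to 18.8 FPKM, and *Pgam1*, the mutase, 9.84 to 19.4 FPKM. Parts of these transcripts recur in other genes, 222 for *Gapdh*, 9 for *Eno1*, 5 for *Pgk1* and 4 for *Pgam1*. The mean FPKM listed for such genes summed to 36.3, 1.53, 0 and 0.12, respectively, and some of them were not listed. Of all 50-base stretches of its transcript, 82.5% were shared with transcripts of other genes for *Gapdh*, 72.2% for *Eno1*, 68.0% for *Pgk1* and 41.5% for *Pgam1*, whereas 20 members shared none. *Pkm*, *Pdhb*, *Ldhb*, *Gpi1* and *Pfkfb2* shared between 25.1% and 34.4%. How fragments of such stretches were assigned sets the FPKM, so the levels of these 9 members are uncertain and their low or high standing beside neighbours in the pathway cannot be read as RNA abundance alone.

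Enolase showed the lowest estimate of the set. *Eno1*, the widespread isoform (ENSMUSG00000063524, chromosome 4 from 150236721 to 150248879), was measured at 138, 130.5, 177, 187 and 139 FPKM in WT mice and at 81.7, 59.8, 138, 90.8, 75.0, 188 and 175 FPKM among Homo 1 to 7. Homo 1, Homo 2, Homo 4 and Homo 5 lay below all WT libraries, and Homo 6 was the highest of all 12. The log2 fold change was -0.52 (standard error 0.28, limma p = 0.0798, adjusted p = 0.903, exact permutation p = 0.114). *Eno1* was also the member that differed most clearly between the library sets, at 59.8 to 138.0 FPKM in the set with fewer and 138.7 to 188.0 FPKM in the set with more genes above 0, without overlap. With genotype in the model this set difference was 0.72 (limma, adjusted p = 0.357), and the genotype difference became -0.29 (exact permutation within sets p = 0.233). Within the sets the genotype difference was -0.64 and 0.12. *Eno2*, the neuronal isoform, was measured at 149, 160.3, 91.9, 114 and 140.1 FPKM in WT mice and at 124 to 172 FPKM in Homo mice, with a median of 145. *Eno2* was the more abundant of the pair in 7 of 12 libraries, 3 of them WT and 4 Homo. The share of *Eno1* in the pair was 44.9% to 65.9% in WT and 30.6% to 52.8% in Homo, with overlap. *Pkm*, pyruvate kinase, was measured at 161 ± 39.5 FPKM in WT mice and 177 ± 18.7 FPKM in Homo mice.

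**Figure D2:**
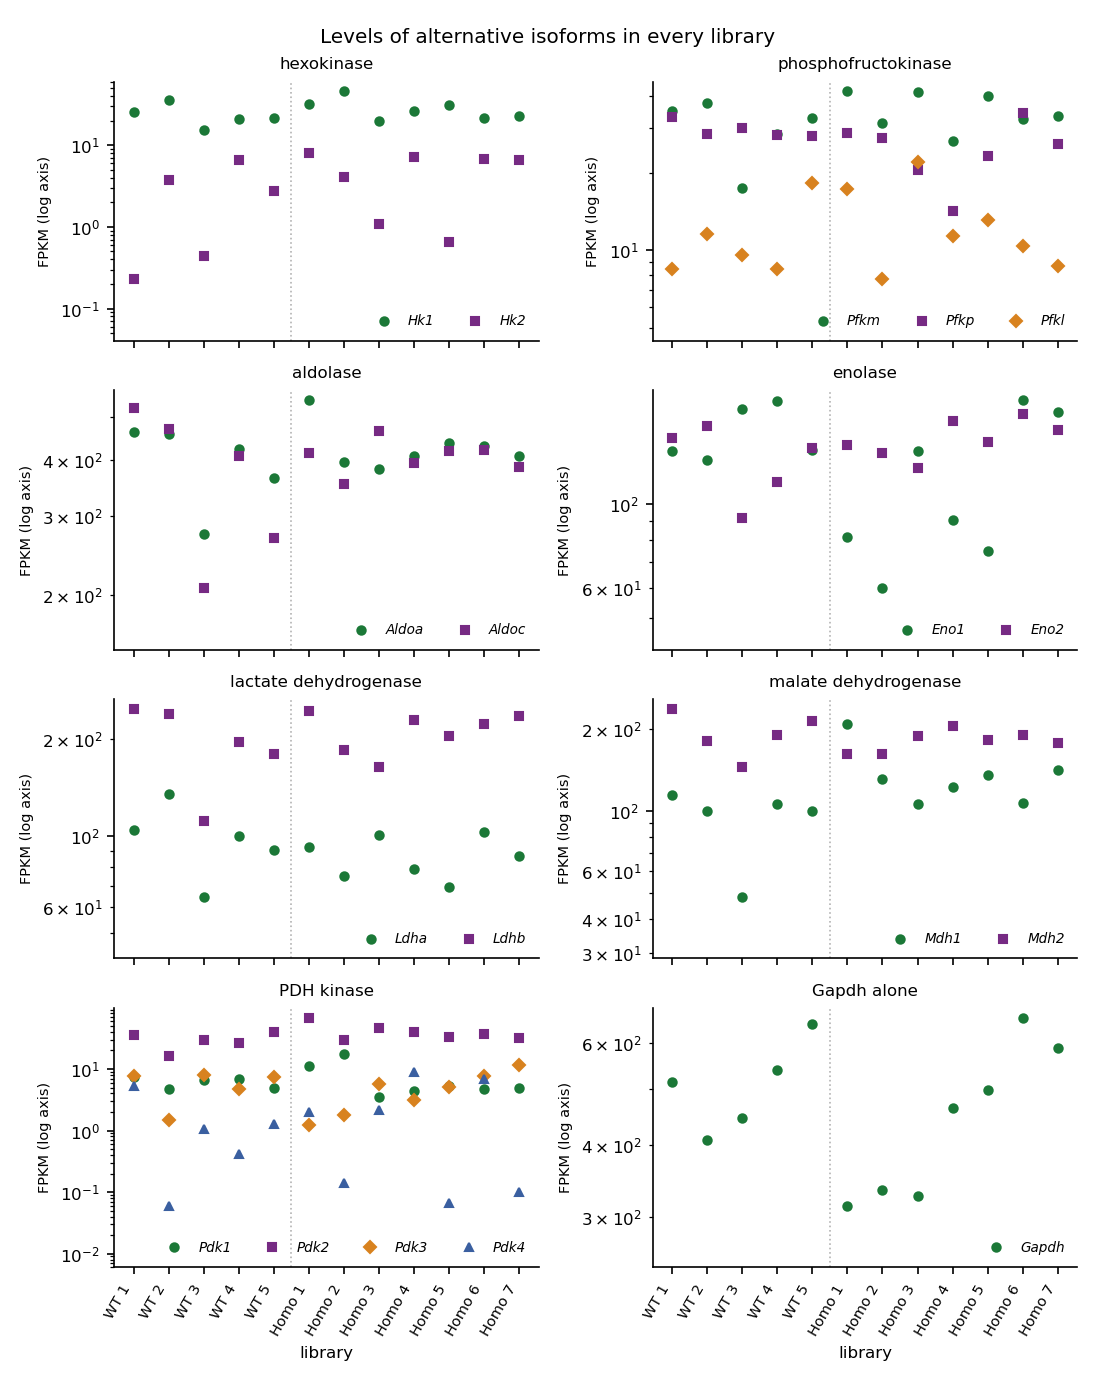
FPKM on a log axis (y) in each of the 12 libraries (x) for 7 sets of isoforms or related kinases and for *Gapdh*, with 1 symbol and colour per gene and a dotted line between WT and Homo. *Hk1*, *Ldhb* and *Pdk2* lead their sets in all 12 libraries, *Mdh2* in 11, whereas the aldolase and enolase pairs change order between libraries.

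Lactate dehydrogenase was represented mainly by *Ldhb*, the heart-type subunit, which is associated with lactate use, over *Ldha*, the muscle-type subunit, associated with lactate production. *Ldhb* was measured at 249, 239.8, 111, 196 and 181 FPKM in WT mice and at 164 to 245 FPKM in Homo mice, with a median of 223. *Ldha* was measured at 105, 136, 64.4, 99.9 and 90.5 FPKM in WT mice and at 69.6 to 103 FPKM in Homo mice, with a median of 86.3. *Ldhb* was the more abundant in 12 of 12 libraries, at 61.9% to 74.7% of the sum of the pair. The estimates pointed in opposite directions, 0.16 for *Ldhb* (standard error 0.20, exact permutation p = 0.475) and -0.16 for *Ldha* (standard error 0.18, exact permutation p = 0.366). The share of *Ldhb* was 66.1% ± 2.8 in WT mice (SD, n = 5) and 70.9% ± 4.5 in Homo (SD, n = 7), with Homo 3 the lowest of all at 61.9%. The estimate for *Ldha* was -0.52 within the set with fewer genes above 0 and 0.17 within the other.

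*Mdh1* was the member that came closest to separating the genotypes. Its product interconverts oxaloacetate and malate in the cytosol as part of the malate-aspartate shuttle, which carries the reducing equivalents of glycolytic NADH into mitochondria. *Mdh1* (ENSMUSG00000020321, chromosome 11 from 21556787 to 21572367 of GRCm38, minus strand) was measured at 115, 99.6, 48.0, 106 and 99.4 FPKM in WT mice and at 209, 131, 106, 122, 136, 106 and 141 FPKM among Homo 1 to 7. All 7 Homo libraries lay above the WT median, WT 3 was the lowest and Homo 1 the highest of all, and Homo 3 and Homo 6 lay within the WT range. The mean was 93.5 ± 26.2 FPKM in WT mice (SD, n = 5) and 136 ± 35.0 FPKM in Homo mice (SD, n = 7). The difference was 0.56 on the log2 scale (standard error 0.23, limma p = 0.0287 and 0.887 after adjustment, exact permutation p = 0.0114). The exact test cannot give a p below 0.0013 with 5 against 7 mice. Once the library set entered the model, the difference was 0.47 (exact permutation within sets p = 0.0952), and it was 0.35 and 0.61 within the sets. Without WT 3 it was 0.34, and the unadjusted limma p was then above 0.05 for all members, as it was without Homo 1.

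*Mdh2*, the malate dehydrogenase of the citric acid cycle and the most abundant mitochondrial member, had an estimate close to 0. It was measured at 236.9, 181, 145, 189.5 and 214 FPKM in WT mice and at 161 to 205 FPKM in Homo mice, with a median of 182. Its log2 fold change was -0.079 (standard error 0.15, exact permutation p = 0.491). As a share of the pair, *Mdh1* held 32.6%, 35.5%, 24.9%, 35.9% and 31.7% in WT and 56.5%, 44.6%, 36.0%, 37.3%, 42.6%, 36.0% and 44.2% in Homo 1 to 7. Every Homo share was thus above every WT share, although WT 4 at 35.89% and Homo 3 at 35.96% were almost equal. This was 1 of 10 isoform sets examined for overlap, the other 9 overlapped, and no test was made of a share chosen in this way. Of 9 other genes of the malate-aspartate and citrate shuttles tested, 3 were higher and 6 lower in Homo, 0 had an unadjusted limma p under 0.05, and their median log2 fold change was -0.091.

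**Figure D3:**
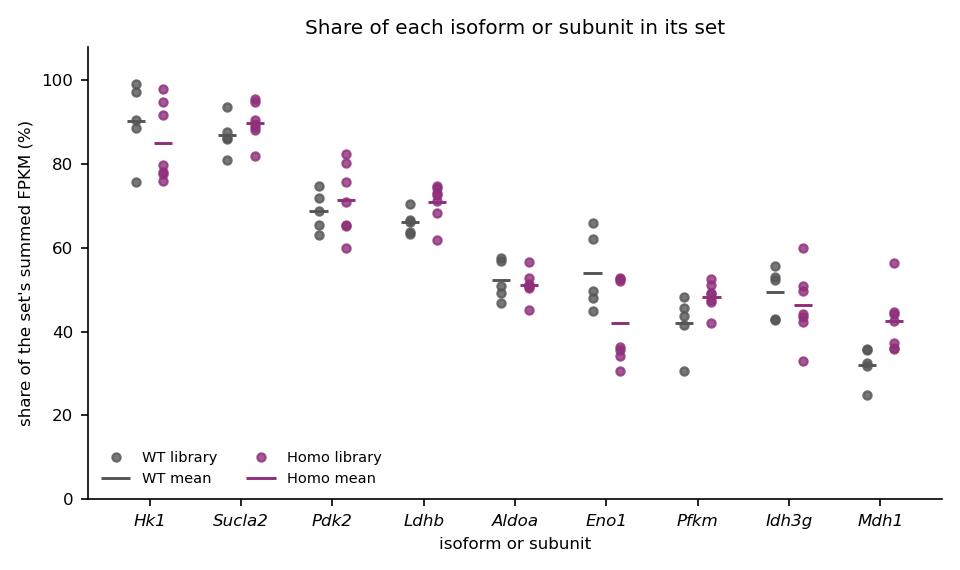
Share (%, y axis) of the summed FPKM of a set held by 1 isoform or subunit (x axis) in each WT library (grey) and Homo library (purple), with horizontal bars for group means. Shares of *Mdh1* lie between 24.9% and 35.9% in WT and between 36.0% and 56.5% in Homo, and the other 8 genes shown overlap.

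The pyruvate dehydrogenase complex links both compartments by turning pyruvate into acetyl-CoA, and the estimates for its subunit transcripts had both signs. *Pdha1* and *Pdhb* encode the decarboxylating component, *Dlat* the acetyltransferase and *Dld* the dehydrogenase that is shared with the oxoglutarate complex. The log2 fold changes were 0.25 for *Pdha1*, -0.18 for *Pdhb*, 0.36 for *Dlat* and -0.28 for *Dld*, with standard errors of 0.19 to 0.23. Mean levels over all libraries ran from 18.5 FPKM for *Pdha1* to 41.5 FPKM for *Pdhb*. *Dlat*, the member of the complex with the smallest limma p (0.131), was measured at 18.4 ± 3.53 FPKM in WT mice and 24.6 ± 7.40 FPKM in Homo mice, and 5 of 7 Homo libraries lay above the WT median. Of 6 accessory genes tested, among them the phosphatases that reactivate the complex, 5 were higher and 1 lower in Homo, and 0 had an unadjusted limma p under 0.05. *Pcx*, pyruvate carboxylase, which supplies oxaloacetate chiefly in astrocytes, was low in both genotypes, at 2.69 ± 0.608 and 2.78 ± 1.03 FPKM.

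The kinases that switch off pyruvate dehydrogenase were represented mainly by *Pdk2*. *Pdk2* (ENSMUSG00000038967, chromosome 11 from 95026258 to 95041354) was measured at 35.2, 16.2, 29.8, 26.2 and 40.1 FPKM in WT mice and at 29.8 to 68.3 FPKM in Homo mice, with a median of 37.1. Homo 1 was the highest. All Homo libraries lay above the WT median of 29.8 FPKM, Homo 2 only just, and WT 5 was exceeded by Homo 1 and Homo 3 alone. The log2 fold change was 0.46 (standard error 0.25, limma p = 0.0834, adjusted p = 0.905, exact permutation p = 0.105). It was 0.77 in the set with fewer genes above 0, where WT 2 was the lowest library of all, and 0.11 in the other. *Pdk1* was measured at 7.40, 4.81, 6.67, 6.76 and 4.97 FPKM in WT mice and at 3.45 to 17.9 FPKM in Homo mice, with a median of 4.95. *Pdk3* was measured at 7.77, 1.48, 7.94, 4.71 and 7.35 FPKM in WT mice and at 1.24 to 11.7 FPKM in Homo mice, with a median of 5.18. *Pdk4*, the isoform induced by fasting and fatty acids, was measured at 5.39, 0.059, 1.04, 0.413 and 1.26 FPKM in WT mice and at 0.067 to 8.91 FPKM in Homo mice, with a median of 2.01. The genotypes overlapped for *Pdk4*. By the estimated worth of 1 fragment, its values stood for 0.796 fragments in WT 2, 0.902 in Homo 5, 2.95 in Homo 2 and 3.93 in Homo 7, too few for a fold over the libraries to be given. *Pdk3* was 1.07 higher on the log2 scale in the libraries with more genes above 0, with genotype in the model (limma, adjusted p = 0.450). *Pdk2* held 60.1% to 82.5% of the summed kinase transcript and led in 12 of 12 libraries.

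In the citric acid cycle itself, 8 of 12 enzyme genes were higher and 4 lower in Homo, with a median log2 fold change of 0.018, and 0 had an unadjusted limma p under 0.05. Citrate synthase, *Cs*, which condenses acetyl-CoA with oxaloacetate, was among the steadiest members, at 35.2 ± 4.16 FPKM in WT mice and 33.2 ± 6.05 FPKM in Homo mice. The 3 subunit genes of the NAD-dependent isocitrate dehydrogenase were unequal: *Idh3g* averaged 88.3 FPKM in WT mice and 79.2 FPKM in Homo mice, *Idh3b* 72.7 and 75.4 FPKM, and *Idh3a*, the catalytic subunit, 18.1 and 18.5 FPKM. The log2 fold changes were -0.16, 0.015 and 0.015, respectively. *Idh2*, the mitochondrial NADP-dependent enzyme, was measured at 13.7 ± 5.54 FPKM in WT mice and 13.6 ± 2.02 FPKM in Homo mice. *Ogdh*, the first component of the oxoglutarate dehydrogenase complex, had the narrowest range of the set, a fold of 1.57 between the lowest and highest library. *Dlst*, its succinyltransferase, lay between 7.84 and 14.6 FPKM in 11 libraries and at 54.4 FPKM in Homo 3.

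The later steps of the cycle were as mixed. Succinyl-CoA ligase, which makes nucleotide triphosphate directly, is a pair of an alpha subunit and an ADP- or GDP-specific beta subunit. *Suclg1*, the alpha subunit, was measured at 38.5, 31.2, 12.3, 33.7 and 22.9 FPKM in WT mice and at 26.5 to 53.2 FPKM in Homo mice, with a median of 37.1, and WT 3 was the lowest library. The estimate was 0.48 (standard error 0.27, limma p = 0.0918, exact permutation p = 0.115), 0.067 in the set with fewer and 0.76 in the set with more genes above 0. *Sucla2*, the ADP-specific beta subunit typical of neurons, held 81.0% to 95.6% of the beta transcript over *Suclg2*, the GDP-specific form, in all 12 libraries. *Sucla2* differed by 0.30 (standard error 0.21) and *Suclg2* by -0.12 (standard error 0.28). *Fh1*, fumarate hydratase, which also acts outside mitochondria, averaged 61.6 FPKM in WT mice and 61.5 FPKM in Homo mice, with SDs of 31.1 (n = 5) and 11.3 (n = 7). Of 13 other citric acid cycle genes tested, 7 were higher and 6 lower in Homo. *Sdhb*, the iron-sulphur subunit of succinate dehydrogenase, was the 1 of them with an unadjusted limma p under 0.05, at 57.4 ± 18.1 FPKM in WT mice and 83.4 ± 19.8 FPKM in Homo mice (estimate 0.57, standard error 0.23, limma with adjusted p = 0.887).

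The cytosolic and the mitochondrial steps were compared as groups. Cytosolic members had the higher FPKM, with a median over genes of 101 FPKM against 22.7 FPKM, and the mean log2(FPKM + 1) of the cytosolic members exceeded that of the mitochondrial members in 12 of 12 libraries, by 1.11 to 1.64. The members whose levels are uncertain because of shared stretches are all cytosolic except *Pdhb*, so this comparison carries that uncertainty. The cytosolic mean was 5.79, 5.82, 5.27, 5.82 and 5.79 in WT 1 to 5 and 5.60 to 5.94 in Homo. The mitochondrial mean was 4.68, 4.18, 4.02, 4.41 and 4.47 in WT 1 to 5 and 4.18 to 4.57 in Homo. WT 3 was the lowest library for both means, and without it the WT libraries lay between 5.79 and 5.82 for the cytosolic mean. The gap between the means was 1.35 ± 0.20 in WT mice (SD, n = 5) and 1.36 ± 0.11 in Homo (SD, n = 7). By these means, the balance between the compartments differed by far less than its spread between mice. By the median log2 fold change over genes, given below, the compartments differed by 0.145. Those SDs belong to the gap between means, so they do not measure the spread of this value between mice. The size of the difference thus depended on whether means or medians were taken.

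**Figure D4:**
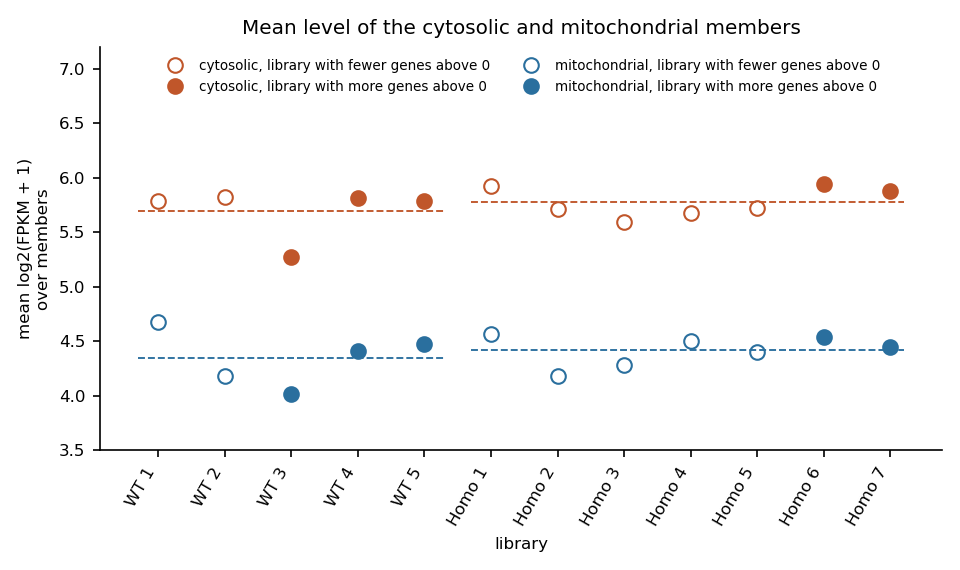
Mean log2(FPKM + 1) over the 20 cytosolic members (orange) and the 21 mitochondrial members (blue), y axis, in each library, x axis. Open symbols are libraries with fewer and filled symbols libraries with more genes above 0, and dashed lines are genotype means; WT 3 is the lowest for both groups, at 5.27 and 4.02.

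The median log2 fold change was 0.16 over the cytosolic members, of which 13 were higher and 7 lower in Homo, and 0.020 over the mitochondrial members, of which 13 were higher and 8 lower. Over all genes tested the median was -0.0062, and 49.3% were higher in Homo. These medians depended on the libraries taken. In the 7 libraries with fewer genes above 0 they were -0.11 and -0.067, beside -0.081 for all genes, and 6 cytosolic and 8 mitochondrial members were higher in Homo. In the 5 libraries with more genes above 0 they were 0.29 and 0.16, beside 0.13 for all genes, and 18 and 18 members were higher. With the library set in the model they were 0.091 and 0.026, and without WT 3 they were 0.019 and -0.093, beside -0.047 for all genes. Homo 3 was the library most often lowest over all genes tested that had 1 lowest library (23.2%), and it was lowest for 8 members. WT 3 gave the lowest value of 18 of the 41 members (43.9%), 12 of them cytosolic, against 16.4% of all genes tested that had 1 lowest library. The part of the low ARC marker sum, the high pituitary and endothelial marker sums and the large top-gene share of WT 3 in these values was not tested.

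**Figure D5:**
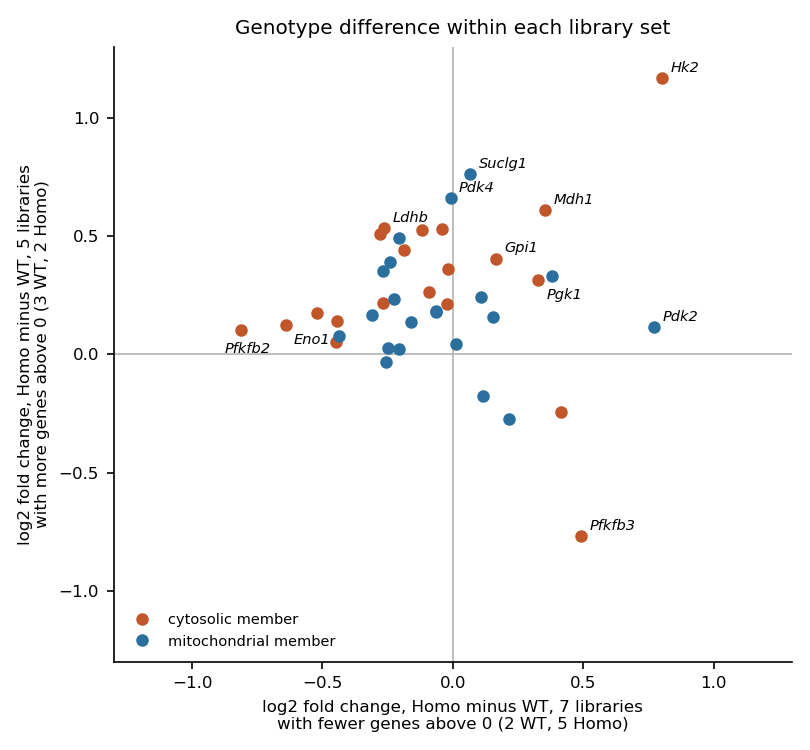
Log2 fold change (Homo minus WT) of each member among the 7 libraries with fewer genes above 0 (x axis) and among the 5 libraries with more (y axis), 1 point per gene. Most points lie in the upper left part, lower in Homo in the former set and higher in the latter, and *Mdh1*, *Hk2*, *Gpi1* and *Pgk1* are among those above 0 in both.

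The sign of the genotype difference was the same in both library sets for 11 of 41 members, 4 of them cytosolic and 7 mitochondrial, and for 44.7% of all genes tested. *Mdh1*, *Hk2*, *Gpi1*, *Pgk1*, *Pdha1*, *Dlat*, *Pdk2*, *Idh3a*, *Suclg1* and *Sucla2* had estimates above 0 in both sets, and *Idh3g* below 0 in both. With genotype in the model, 4 members differed between the sets at an unadjusted limma p under 0.05 (*Eno1*, *Pdk3*, *Gapdh* and *Hk1*), beside 8.42% of all genes tested, and 0 had an adjusted p under 0.05, where 25 of all genes did.

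Genes next to these pathways were counted in lists. Of 14 other glycolytic isoforms and side-step genes tested, 5 were higher and 9 lower in Homo. *Pgm2*, a phosphoglucomutase that ties glycogen and pentose sugars to glycolysis, was the 1 with an unadjusted limma p under 0.05, at 18.8 ± 6.92 FPKM in WT mice and 26.1 ± 3.62 FPKM in Homo mice (estimate 0.52, standard error 0.23, limma with adjusted p = 0.899). Of 7 genes of the pentose phosphate pathway, which diverts glucose 6-phosphate to NADPH and ribose, 4 were higher and 3 lower. Of 5 lactate and pyruvate transport genes, 5 were higher, with a median log2 fold change of 0.18, and 0 of the 12 genes of these last lists had an unadjusted limma p under 0.05. Over all 54 neighbouring genes tested, 29 were higher and 25 lower, the median was 0.065 and 2 (*Sdhb* and *Pgm2*) had an unadjusted limma p under 0.05. Among cell type markers, the 8 microglial genes all had estimates above 0 in Homo, 4 of them at an unadjusted limma p under 0.05 (median 0.43, summed FPKM 49.7 to 74.3 in WT and 70.9 to 122 in Homo), and so did the 8 oligodendrocyte genes, with 0 at that level (median 0.44). The 8 markers of ARC neurons also had estimates above 0, 2 of them (*Agrp* and *Npy*, the peptides of hunger-promoting neurons) at an unadjusted limma p under 0.05. Their median was 0.43 over all libraries, -0.10 in the set with fewer and 0.71 in the set with more genes above 0, and 0.22 without WT 3. The 7 general neuronal markers had a median of 0.038, which was -0.066 and 0.32 within the sets. Of 7 tanycyte and ependymal genes tested, 5 had estimates below 0, 1 of them (*Crym*) at an unadjusted limma p under 0.05 (median -0.24, summed FPKM 18.1 to 122 in WT and 9.47 to 49.9 in Homo). The medians were 0.18 over 8 astrocyte genes, -0.097 over 8 endothelial genes, -0.69 over 3 pituitary genes tested, -0.47 over 3 blood genes and 0.0072 over 2 genes of the ventromedial nucleus, with 0 of these at an unadjusted limma p under 0.05. The part of these cell types in the members' values was not tested.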

How the data were processed

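RNA from laser-captured ARC of 5 WT and 7 Homo mice was purified, amplified across the whole transcriptome and sequenced from bar-coded libraries on an Illumina HiSeq instrument. The submitters' processing notes name GRCm38, TopHat2 2.0.8 and Cufflinks 2.2.1 without roles, and the authors deposited 1 table of FPKM values, so no count model was used and the fragments behind a value are known only by estimate. All 12 columns were matched to mice, 2 of them (Homo 4 and Homo 5) by genotype and number because their names carry an extra letter. The scale was log2(FPKM + 1), on which changes of low genes come out too small. The test was limma 3.58.1 under R 4.3.3 on the 14017 genes whose mean FPKM reached 1, with genotype alone in the model, eBayes with robust variances and a trend, and Benjamini-Hochberg adjustment. Single genes were also compared by exact two-sided permutation over 792 arrangements, or 210 within library sets, where the smallest p is 0.0048. The p-values measure the spread between these libraries, 1 per mouse, in which differences between mice and between preparations cannot be told apart.

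The library sets were split at the largest gap in genes above 0. What 1 fragment on 1 kb was worth was read from the spacing of low values, after multiplying FPKM by transcript length minus 180 bases. Shared 50-base stretches came from GENCODE M21 transcripts and promoter windows from RefSeq (GRCm38.p6). The limma fit was tested on simulated data with known shifts, and this test covered no other step. The members, the lists and the rule for named genes were chosen with earlier results of these data known. Values in every library are given for members with an unadjusted p under 0.05 or no overlap, for the smallest p and the highest level in each compartment, and for 7 isoform sets (hexokinase, phosphofructokinase, aldolase, enolase, lactate and malate dehydrogenase and the PDH kinases), where the 7 Homo values of some genes are given as range and median; *Suclg1*, the share of *Mdh1* and the library extremes were added after their values were seen. Alternatives covered pseudocount, filters, normalization, weights, variance model, library set, a replicate block and leaving out libraries. Plots were drawn with matplotlib 3.10.9.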

Additional observations from a re-analysis of the deposited data

Results flagged for a closer look

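Within-group extremes were searched over 88 combinations of a genotype with a member or a group mean, and 8 were found in which 1 library stood far from the others by Dixon's criterion, where chance gives about 1 in 20. Among WT mice, *Mdh1* was lowest in WT 3 at 48.0 FPKM, the cytosolic mean was lowest in WT 3 at 5.27 on the log2 scale, and *Pdk4* was highest in WT 1 at 5.39 FPKM. Among Homo mice, *Aldoa* and *Mdh1* were highest in Homo 1 at 545 and 209 FPKM, *Dlst* was highest in Homo 3 at 54.4 FPKM, *Idh2* was lowest in Homo 3 at 9.46 FPKM, and *Fh1* was highest in Homo 4 at 86.1 FPKM. Both *Mdh1* extremes widen the genotype difference: its log2 fold change was lowest, at 0.34, without WT 3. For *Dlst*, the other 6 Homo libraries lay between 7.84 and 12.4 FPKM.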

How the results depend on the processing

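No member had an adjusted p under 0.05 under any of 25 alternatives (limma); the smallest was 0.511. Over all genes, the 1 call of the main analysis became 6 and 19 in the libraries with fewer and more genes above 0, 4 with Homo 1 to 5 alone and 1 to 3 with a library left out (3 without WT 2, 2 without Homo 4). The 1 member with an unadjusted p under 0.05 became 0 with the library set in the model and 0 in the libraries with more genes; it was *Ldha*, lower, in those with fewer genes. It became 2 with Homo 1 to 5 alone and 0 to 3 with a library left out: 0 without WT 3 or Homo 1, 3 without WT 1, and 2 without WT 5, Homo 3, Homo 6 or Homo 7. Scaling without the 10 most abundant genes gave 2, *Eno1* and *Dld*, both lower; it moved the median of all genes to -0.12, the cytosolic median to 0.038 and the mitochondrial median to -0.098. In the libraries with fewer genes, the cytosolic median was -0.11 and its gap to the mitochondrial median -0.040, against 0.145 in the main analysis. With a library left out, the cytosolic median ranged from 0.019 to 0.26, the mitochondrial from -0.093 to 0.11 and the gap from 0.059 to 0.22.

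A replicate block of equal numbers, with Homo 6 and Homo 7 left out, gave 2 calls over all genes and 4 members with an unadjusted p under 0.05 (*Gapdh*, *Eno1*, *Mdh1* and *Pdk2*). Deviations of same-numbered libraries correlated at -0.054 to 0.029. WT 3, WT 4 and WT 5 lie in the other library set than Homo 3, Homo 4 and Homo 5, which enters these correlations. They therefore cannot decide whether same-numbered mice were related, and this was not tested.

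Of 448 values of 18 named members, 25 changed sign. In the libraries with fewer genes these were *Aldoa* at -0.093, *Aldoc* at -0.28, *Eno2* at -0.12, *Hk1* at -0.024, *Ldhb* at -0.26, *Pdk4* at -0.0083 and *Pfkm* at -0.018. In the libraries with more genes they were *Eno1* at 0.12, *Gapdh* at 0.22, *Ldha* at 0.17, *Mdh2* at 0.022, *Pdk1* at -0.28, *Pdk3* at 0.49, *Pfkl* at -0.25 and *Pfkp* at 0.054. *Aldoa* was at -0.039 with quantile normalization. *Pdk1* was at -0.046 with scaling without the top genes, -0.025 with array weights and -0.0093 when the model held the library set, and ranged from -0.16 to 0.19 with a library left out. *Pdk3* was at 0.040 with array weights and 0.11 when the model held the set, and *Ldhb* ranged from -0.026 to 0.26 with a library left out. The cause was not tested. With 5 and 7 libraries, whose depth is known only by estimate, differences of the size seen in most members were within the spread between libraries.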
